A study of Arabidopsis thaliana with 12 samples.

Results

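Proteins of plastids and mitochondria are kept in working order by proteases that remove damaged or unneeded chains and by chaperones and isomerases that help chains reach their folded form. The 3 genes described here stand for different steps of that upkeep. SPPA (AT1G73990) encodes a thylakoid protease, AT5G49840 a ClpX-type ATPase and AT5G35100 a cyclophilin. Each was measured by 1 probe to which the platform annotation gives that gene alone, which were probes 2213, 225 and 2835. They are 3 of 692 probes with 1 gene, on an array of 3439 probes. The annotation names 691 genes in this way. All 3 were selected on their difference between the groups compared below, in a limma fit to the same intensities, so their values are a description of that choice and no test of it.

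SppA-type enzymes are serine proteases, and the plant enzyme is associated with the thylakoid membrane, where it is known as a light-inducible protein. ClpX proteins are ring-shaped ATPases that unfold substrates and feed them into the chamber of the ClpP protease, and in plants they are found in mitochondria. Cyclophilins catalyse the isomerisation of peptide bonds before proline, a slow step of protein folding.

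RNA was taken from 6 samples of dark-adapted wild type *Arabidopsis thaliana* and from 6 samples of laf6 mutant plants given 1 h of normal light after dark adaptation. Both groups were of ecotype Landsberg. The mutant lacks atABC1, a plastid ABC-type protein also known as SUFB. Genotype and light changed together, so the contributions of the mutation and of the light cannot be told apart. The labels name no tissue or age. They also leave unsaid if each number is a plant or culture of its own, so the spread between samples may be technical. In total RNA of this kind, fewer cells of a type and less RNA per cell cannot be told apart either.

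Deposited intensities are linear, with many probes at exactly 0 and a ceiling of 100. Sample medians ran from 0.218 to 0.289 in wild type and from 0.161 to 0.170 in laf6, and the share of probes at 0 from 13.0% to 15.7% and from 14.6% to 19.3%. Samples numbered 1 and 2, 3 and 4, and 5 and 6 of a group were averaged as 2 readings of 1 replicate, giving 3 replicates per group. The labels do not call these samples repeat readings, and the averaging rests on their numbers and values. In the values as deposited, the median log2 difference of all probes, laf6 minus wild type, was -0.54, and after quantile normalisation it was -0.08. Normalised differences below are relative to that shift.

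SPPA, the thylakoid protease, was listed at 0 in 5 of the 6 wild type readings and at 0.00127 in sample 5. In laf6 after light the 6 readings, in order of sample number, were 0.0522, 0, 0, 0.0914, 0.0278 and 0.0103. The laf6 group thus held 4 readings above 0 against 1 in wild type, and 2 of its readings shared the value 0 with wild type, so the groups overlapped.

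Averaged over the 3 replicates, SPPA had an intensity of 0.000211 ± 0.000366 for wild type against 0.0303 ± 0.0138 for laf6 (SD, n = 3 each), a difference of 0.0301. No fold is given, since the wild type mean rests on 1 reading above 0. Within laf6 the readings averaged together were unlike each other. Replicate 1 combined 0.0522 with 0, replicate 2 combined 0 with 0.0914, and replicate 3 combined 0.0278 with 0.0103, a ratio of 2.70. The highest reading of SPPA, 0.0914, lay below the lowest sample median of the array, 0.161.

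**Figure D1:**
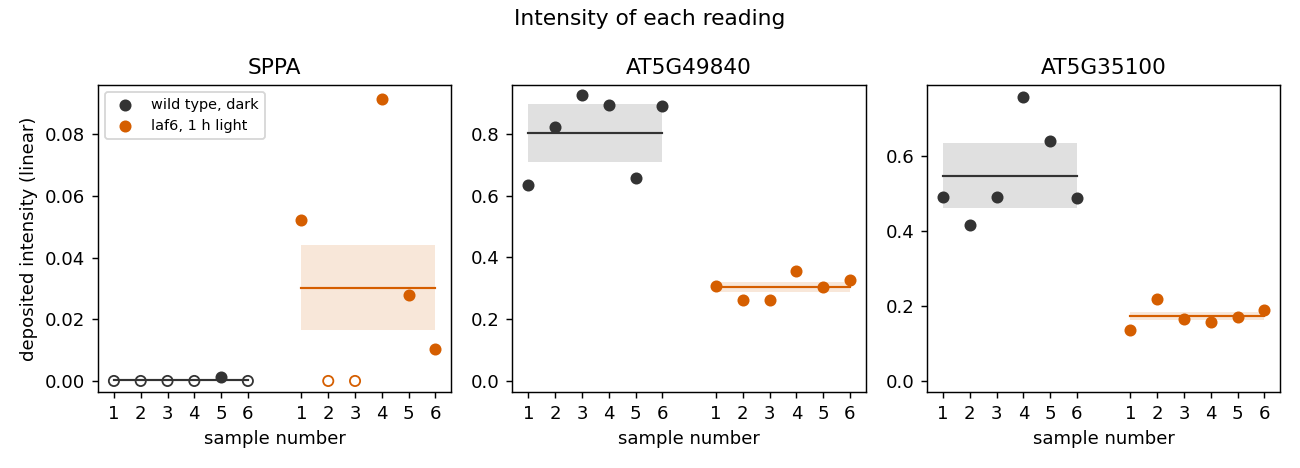
Deposited intensity (linear scale, each panel with its own axis) of SPPA, AT5G49840 and AT5G35100 in the 6 wild type and 6 laf6 samples, by sample number. Filled points are readings above 0, open points are readings listed at 0, and lines with bands are the mean and SD of 3 averaged replicates. SPPA was above 0 in 4 laf6 readings and 1 wild type reading, and for both other genes every laf6 reading lay below every wild type reading.

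Readings of SPPA lay in the dim part of their own samples. A reading's percentile among the 3439 probes of its sample, with tied values sharing a rank, ranged from 6.51 to 13.2 for wild type and from 8.88 to 37.1 for laf6. Percentiles serve here to compare the same probe between samples, since probes differ in how strongly they bind. Over all 12 samples the SPPA intensity averaged 0.0152. A total of 277 probes had a mean between 0.5 and 2 times that value, and 209 of them were at 0 in 7 or more of the 12 samples, as SPPA was. A pattern of zeros was then set to the readings of SPPA itself, so its share is a description and no support. Of all probes, 11 (0.320%) were at 0 in 5 or 6 wild type readings and above 0 in at least 4 laf6 readings, while 48 (1.40%) showed the mirror image. Most probes could show neither, since 300 were at 0 in 5 or 6 wild type readings and 349 in 5 or 6 laf6 readings.

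AT5G49840, the ClpX-type ATPase, had deposited intensities in wild type from 0.634 to 0.926, with a median of 0.857. In laf6 after light they ran from 0.261 to 0.356, with a median of 0.306. Every laf6 reading was below every wild type reading, and no reading was at 0. As deposited, the lowest wild type reading was 1.78 times the highest laf6 reading. The ratio of highest to lowest was smaller, 1.46 within wild type and 1.36 within laf6. Normalised log2 readings ran from -0.850 to -0.095 in wild type and from -1.684 to -1.274 in laf6. On that scale the gap between the groups was narrower than the range within wild type.

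AT5G49840 averaged 0.804 ± 0.0947 for wild type against 0.303 ± 0.0164 for laf6 (SD, n = 3 each). Deposited values of wild type were 2.56, 2.94 and 2.46 times those of laf6 in replicates 1, 2 and 3. On the log2 scale the difference was -1.40 ± 0.12 (SE) as deposited and -0.99 ± 0.12 after normalisation. The readings averaged together differed by 1.04 to 1.35 times, well short of the ratio between the groups. Its percentile within the sample ranged from 77.6 to 86.7 for wild type and from 62.1 to 70.3 for laf6.

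AT5G35100, the cyclophilin, also had lower values in laf6. Its intensities ran from 0.417 to 0.759 in wild type, with a median of 0.491, and from 0.135 to 0.218 in laf6, with a median of 0.168. Here too every laf6 reading was below every wild type reading, and none was at 0. In deposited values the lowest wild type reading was 1.92 times the highest laf6 reading, against ranges of 1.82 times within wild type and 1.61 times within laf6. Normalised log2 readings ran from -1.537 to -0.619 in wild type and from -2.540 to -1.937 in laf6. There the gap between the groups was narrower than the range within either group.

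AT5G35100 averaged 0.548 ± 0.0863 for wild type against 0.173 ± 0.0102 for laf6 (SD, n = 3 each). The ratio of wild type to laf6 in deposited values was 2.57, 3.88 and 3.13 in replicates 1, 2 and 3. Its log2 difference was -1.66 ± 0.15 (SE) as deposited and -1.13 ± 0.17 after normalisation. Readings averaged together differed by up to 1.61 times. The widest wild type pair was that of replicate 2, at 0.490 and 0.759. Percentiles within the sample ran from 65.1 to 80.8 in wild type and from 45.5 to 57.1 in laf6.

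**Figure D2:**
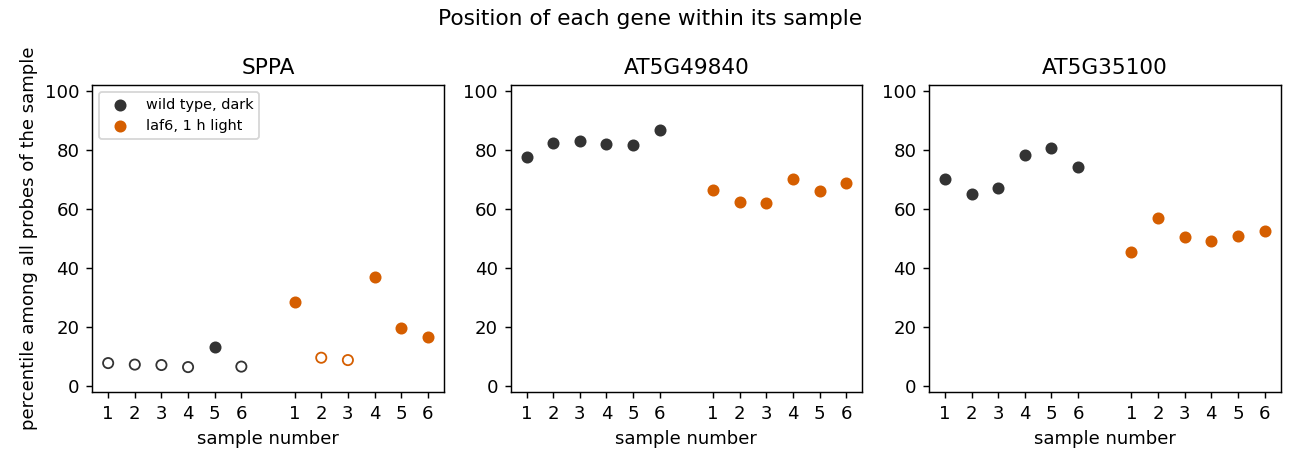
Percentile of each gene among the 3439 probes of its own sample, by sample number, for wild type and laf6. Open points are readings listed at 0, where tied probes share a rank. AT5G49840 and AT5G35100 had lower percentiles in every laf6 sample than in any wild type sample, and SPPA stayed at or below 37.1 throughout. Percentiles order readings much as quantile normalised values do, and in those 7.73% of all probes had every laf6 reading below every wild type reading.

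Non-overlap in this direction was frequent on the array, and laf6 samples also had lower medians. A link between them was not tested. As deposited, 617 of 3439 probes (17.9%) had every laf6 reading below every wild type reading, and 156 (4.54%) the reverse. In normalised values the shares were 7.73% and 7.97%, and AT5G49840 and AT5G35100 were among the probes without overlap on both scales. Of all probes, 13.3% had a more negative normalised log2 difference than AT5G49840 and 12.1% than AT5G35100. As deposited these shares were 16.6% and 13.7%.

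**Figure D3:**
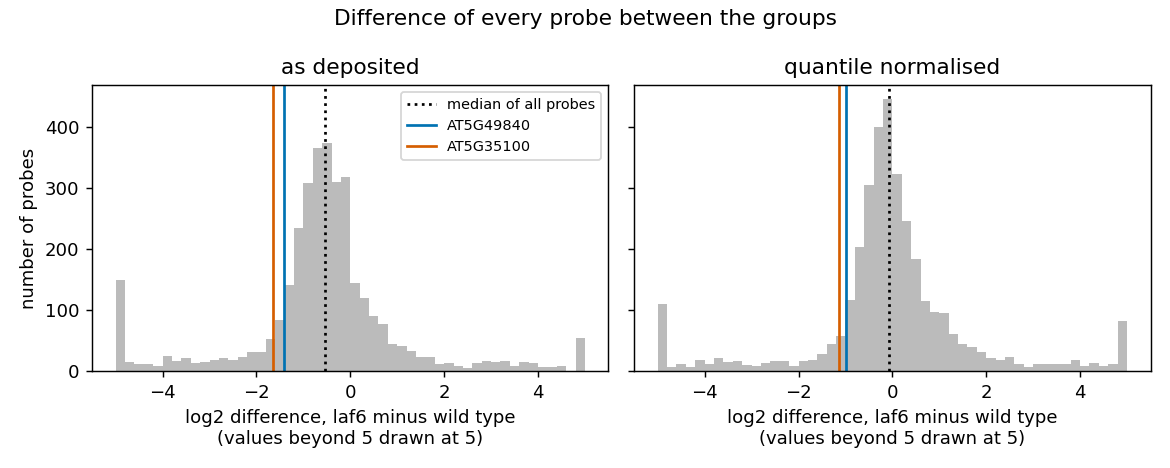
Number of probes by log2 difference, laf6 minus wild type, as deposited on the left and after quantile normalisation on the right, in bins of 0.2. The dotted line is the median of all 3439 probes (-0.54 and -0.08), and the coloured lines are AT5G49840 (-1.40 and -0.99) and AT5G35100 (-1.66 and -1.13). Both lie to the left of the median in both scalings.

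In the limma fit over all probes, 3 of 3 of these genes were called at an adjusted p under 0.05, SPPA higher and the others lower in laf6. Of all probes, 9.74% were called, 5.50% higher and 4.25% lower. Since the calls are what chose the genes, the count carries no further information. The adjusted p-values in limma were 0.00643 for SPPA, 0.0174 for AT5G49840 and 0.0290 for AT5G35100. Around the threshold, the last single-gene probe inside was AT2G32040 at 0.0495 and the first outside was AT2G38070 at 0.0503. The fitted log2 difference of SPPA depends on the value put in place of 0 and is not a measured size.

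With the replicate number as a block, none of the 3 genes was called, and 12 of all probes (0.349%) were. The adjusted p-values in limma were then 0.0822 for SPPA, 0.0793 for AT5G49840 and 0.102 for AT5G35100, with 2 residual degrees of freedom. In both other fits with a block AT5G49840 and AT5G35100 were called and SPPA was not. With block and pseudocount together the adjusted p-values in limma were 0.0919, 0.0302 and 0.0493 for SPPA, AT5G49840 and AT5G35100, and with the 12 samples taken singly and their numbers as a block they were 0.0799, 0.00284 and 0.00919. The fit on single samples treats readings averaged elsewhere as replicates of their own. AT5G49840 was not called without wild type replicate 2 (adjusted p = 0.0633 in limma) or 3 (0.0553), or without laf6 replicate 1 (0.0606) or 2 (0.0682). AT5G35100 was called only when wild type replicate 1 was left out (0.0292 in limma) among the fits without 1 replicate, and its other values there were 0.0627 to 0.0967. Where no call was made the differences themselves stayed between -1.14 and -0.92 on the log2 scale for these genes. SPPA kept its call without any 1 replicate but was not called once a pseudocount replaced the floor (adjusted p = 0.0579 in limma) or with the 12 samples taken singly (0.0554). The share of all probes that limma called was 4.48%, 3.05% and 2.76% when replicate 1, 2 or 3 of wild type was left out, and 4.51%, 2.91% and 5.73% when that of laf6 was. It was 13.8% without normalisation, 7.39% with replicates centred on their medians, 14.5% with the pseudocount, 11.5% with block and pseudocount together, 22.5% with the 12 samples taken singly, 22.2% with those and the block, and 13.8% without the dimmest 25% of probes.

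**Figure D4:**
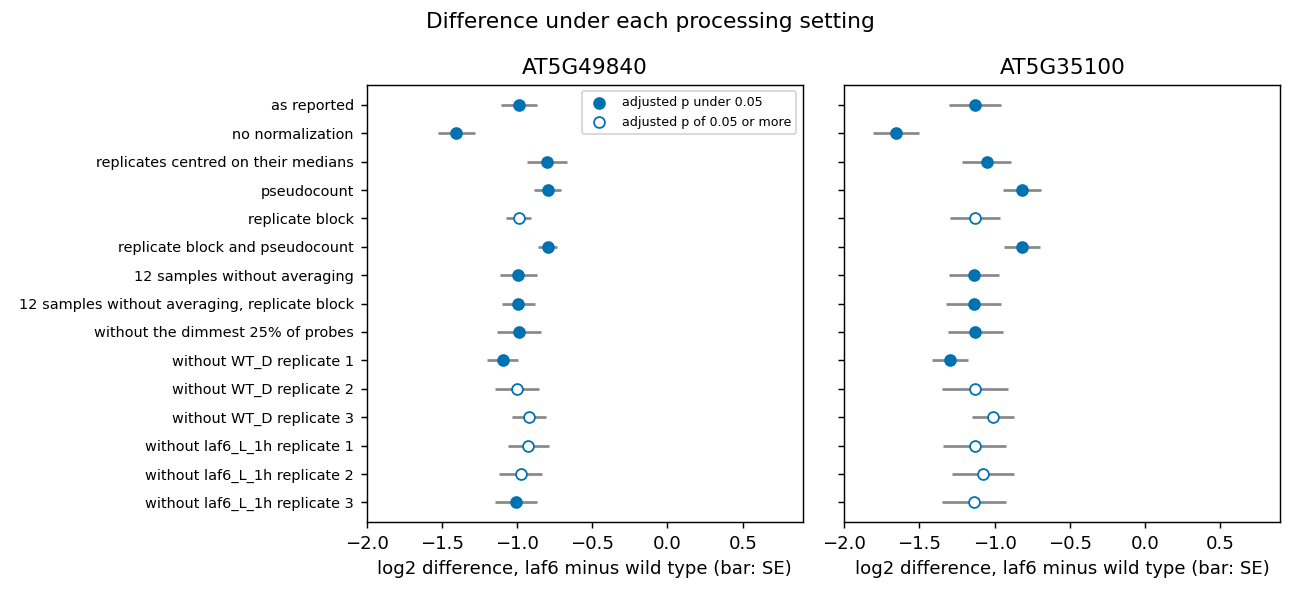
Log2 difference, laf6 minus wild type, of AT5G49840 and AT5G35100 under each processing setting, with SE bars. Filled points have an adjusted p under 0.05 in limma over all probes of that setting and open points do not. Every value is negative, from -1.40 to -0.80 for AT5G49840 and from -1.66 to -0.82 for AT5G35100.

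Probes with readings most like those of each gene were sought among the 546 other single-gene probes that were at 0 in at most 3 of 12 samples. Likeness was Pearson's r over the 12 normalised samples, which reflects mainly the distance between the groups. For AT5G49840 the closest were AT2G36480 (r = 0.93), AT4G13680 (0.91) and AT3G16310 (0.91). For AT5G35100 they were AT5G56070 (r = 0.92), AT2G46300 (0.92) and AT4G09620 (0.90). All of these had every laf6 reading below every wild type reading as deposited, as had 17.9% of all probes, which their choice by r made likely. Within wild type their r ran from -0.49 (AT4G13680) to 0.86 (AT2G46300). Within laf6 it ran from 0.19 (AT4G09620) to 0.68 (AT2G46300). AT2G36480 went from 1.74 ± 0.427 to 0.644 ± 0.0504 and AT5G56070 from 0.567 ± 0.110 to 0.221 ± 0.0233 (SD, n = 3 each). SPPA, at 0 in 7 samples, was not compared in this way.

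The other genes of organelle protein upkeep were taken from 5 lists of 142 loci, covering the Clp protease, FtsH, Deg and Lon proteases, other organelle proteases and peptidases, plastid and mitochondrial chaperones, and cyclophilins and FKBPs. Of these loci 14 were measured by a probe of 1 gene, the 3 genes above and 11 others. Probes of several genes, which are not named here, held 16 listed loci. Of the 11 others, 0 were called higher and 0 lower in limma at an adjusted p under 0.05, against 5.50% and 4.25% of all probes. Their median log2 difference after normalisation was 0.09, with 7 positive and 4 negative, beside -0.08 for all probes. As deposited it was -0.56, beside -0.54.

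In the list of plastid and mitochondrial chaperones, AT3G47650 had readings above 0 in all 12 samples. They ran from 0.569 to 0.965 in wild type, with a median of 0.758, and from 1.08 to 1.96 in laf6, with a median of 1.25. Each laf6 reading was above each wild type reading, as for 4.54% of all probes. The log2 difference of AT3G47650 was 1.14 ± 0.25 (SE) after normalisation (adjusted p = 0.0602 in limma) and 0.90 as deposited. It was called in 6 of the 15 settings run. The adjusted p in limma was 0.0867 with the replicate block, 0.0324 with block and pseudocount together, and 0.101 to 0.154 in the fits without 1 replicate.

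Cpn60beta3 and Cpn60beta4, subunits of the plastid chaperonin in which newly imported proteins fold, had overlapping readings. Cpn60beta3 had 0.241 ± 0.0885 (SD, n = 3) in wild type and 0.164 ± 0.0659 (SD, n = 3) in laf6, a normalised log2 difference of 0.07 ± 0.39 (SE). Cpn60beta4 had 0.253 ± 0.0327 and 0.155 ± 0.0826, a difference of -0.23 ± 0.43. As deposited the differences were -0.56 and -0.84, so the sign of Cpn60beta3 depended on the scaling. AT5G55220, also in the chaperone list, was listed at 0 in all 6 wild type and 5 laf6 readings.

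Cyclophilins and FKBPs other than AT5G35100 were represented by AT1G74070 and AT5G13410. AT1G74070 had 0.286 ± 0.0977 (SD, n = 3) in wild type and 0.421 ± 0.0915 (SD, n = 3) in laf6, and its deposited readings overlapped. In normalised values each laf6 reading was above each wild type reading, as for 7.97% of all probes. The lowest laf6 value there, -1.524, was just above the highest wild type value, -1.527. The normalised log2 difference of AT1G74070 was 1.10 ± 0.28 (SE, limma adjusted p = 0.0829), opposite in sign to that of AT5G35100. It was called in 4 of the 15 settings. Its adjusted p in limma was 0.0800 with the replicate block, 0.0302 with block and pseudocount together, and 0.100 to 0.205 in the fits without 1 replicate. AT5G13410 had 0.108 ± 0.0707 and 0.0570 ± 0.0152, with a difference of 0.09 ± 0.56 after normalisation and -0.75 as deposited.

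Among listed proteases, the probes of the Clp protease list beside AT5G49840 were those of AT2G03390 and AT1G68660. AT2G03390 had 0.372 ± 0.0270 (SD, n = 3) in wild type and 0.250 ± 0.0619 (SD, n = 3) in laf6, a normalised log2 difference of -0.09 ± 0.19 (SE). AT1G68660 was at 0 in 1 reading of each group and reached 0.107 in wild type and 0.191 in laf6. Neither gene had groups without overlap, nor had most probes, with 17.9% lower and 4.54% higher in laf6 without overlap as deposited. The contrast with AT5G49840 follows from the choice of that gene and was not tested.

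In the list of other organelle proteases and peptidases, AT2G47390 had a normalised log2 difference of 0.62 ± 0.13 (SE; limma adjusted p = 0.0541), and 0.11 as deposited. It was called in 2 of the 15 settings, with adjusted p-values in limma from 0.0306 to 0.560. AT5G46390 had 0.241 ± 0.0789 (SD, n = 3) in wild type and 0.118 ± 0.00774 (SD, n = 3) in laf6, a difference of -0.33 ± 0.27 after normalisation and -0.98 as deposited. AT3G02450, the one locus of the FtsH, Deg and Lon list with a probe of its own, was at 0 in 2 wild type and 3 laf6 readings. The highest readings of AT3G02450 were 0.0813 in wild type and 0.110 in laf6.

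**Figure D5:**
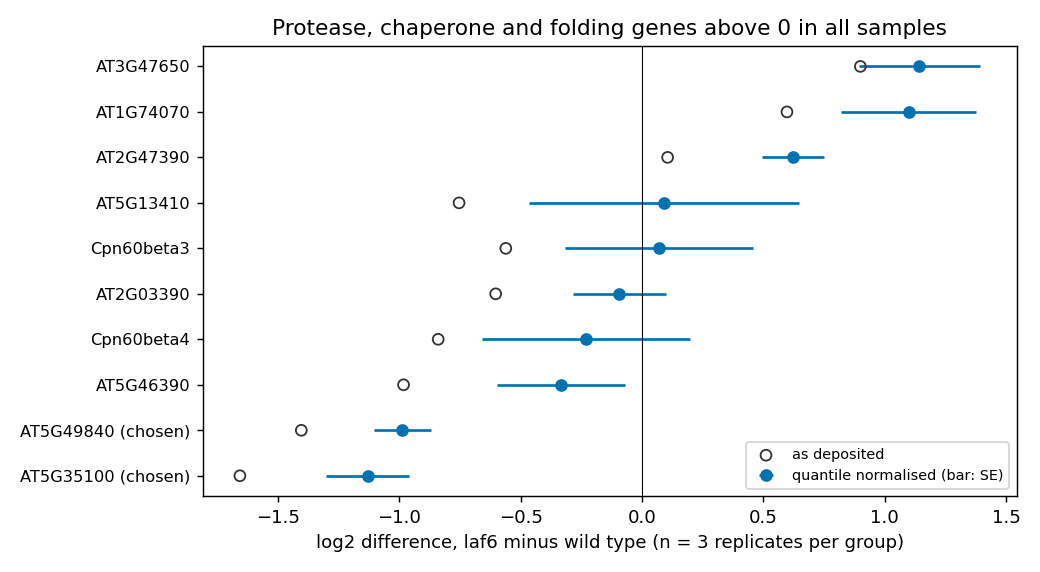
Log2 difference, laf6 minus wild type, of the 10 listed genes above 0 in all 12 samples. Filled points are quantile normalised values with SE bars (n = 3 replicates per group), and open points are values as deposited. AT5G35100 and AT5G49840 have the most negative values of the 10 on both scales, as follows from their choice, and AT3G47650 the most positive.

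A search of gene symbols and synonyms for words of proteolysis and folding added 2 genes, neither of them called in limma. TPP2, tripeptidyl peptidase II, a large peptidase that trims peptides, was at 0 in 4 wild type and 3 laf6 readings and reached 0.0450 and 0.0832. CCS, the copper chaperone that loads copper into a superoxide dismutase, is a metal carrier and no folding helper. It had 0.142 ± 0.0328 (SD, n = 3) in wild type and 0.114 ± 0.0454 (SD, n = 3) in laf6, with overlapping readings.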

How the data were processed

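RNA of 12 samples was measured on 1 array design. The files hold linear spot intensities as deposited. The authors' background correction, scaling and ceiling are not given in the sources used. The number of arrays limits the precision. Probe names came from the platform annotation and were matched to the TAIR10.1 gene table (690 of 692 single-gene probes), which was used for names only. No coordinates are given, as the array's build is not stated.

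Samples numbered 1 and 2, 3 and 4, and 5 and 6 of a group were averaged. Over 1387 probes with a mean intensity above 0.3, deviations from the group mean correlated at 0.03 to 0.69 within these pairs and at -0.63 to 0.16 between other pairs of a group. Averaged replicates of the same number in both groups correlated at 0.17 to 0.56 over those probes and at 0.08 to 0.19 over all probes. On these values alone, equal numbers were taken to pair the samples. The fit without the block was kept as planned, so its SEs and adjusted p-values leave that pairing out. With the block added to that fit, none of the chosen genes was called.

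Intensities of 0 were replaced by the lowest positive one, 1.33e-05, taken to log2 and quantile normalised. Groups were compared with limma 3.58.1 (lmFit, eBayes) in R 4.3.3, with Benjamini-Hochberg adjustment over 3439 probes and calls at an adjusted p under 0.05. The pseudocount of the alternatives was 0.118, the 25th percentile of positive intensities. Genes named are the 3 chosen genes, every measured gene of the lists, genes found by keyword that were called or among the 3 brightest of their class, and the 3 probes most like each of AT5G49840 and AT5G35100. AT2G32040 and AT2G38070, on either side of the threshold, were named after their values were seen. The genes and lists were chosen with earlier results of these data known. A planned search of promoter motifs was not run.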

Additional observations from a re-analysis of the deposited data

Results flagged for a closer look

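Of 43 groups of 6 readings, 4 held 1 reading set apart from the other 5 by more of the group's range than Dixon's critical value for 6. Chance flags about 1 in 20 groups of untied values, a rate that does not apply to groups of tied zeros. In 2 of the 4 groups the other 5 readings were all at 0, so a single positive reading met the rule by construction. SPPA in wild type had a single reading above 0, at 0.00127 in sample 5, and AT5G55220 in laf6 had a single one at 0.0132 in sample 3. Cpn60beta3 in laf6 reached 0.373 in sample 4. AT5G56070 in wild type reached 0.880 in sample 4, the sample in which AT5G35100 also had its highest deposited reading, 0.759. Wild type sample 4 had the highest median of all samples, 0.289, and AT5G56070 was chosen for its likeness to AT5G35100. After normalisation the highest wild type value of AT5G35100 was in sample 5 (-0.619 on the log2 scale, against -0.806 in sample 4).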

How the results depend on the processing

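The sign of the difference stayed the same for SPPA, AT5G49840 and AT5G35100 in every setting that tested them, which their choice made likely. SPPA kept its call in 8 of 13 alternatives, AT5G49840 in 9 of 14 and AT5G35100 in 8 of 14. With the replicate block the log2 differences were 10.73 (a value that depends on the floor), -0.99 and -1.13, with 0 of the 3 genes and 12 probes of the array called by limma. SPPA was also not called with the pseudocount alone or with the block (0.44 in both), nor with the 12 samples unaveraged without or with the block (7.03 in both). Against 335 calls over the array, the 12 samples unaveraged gave 774, or 764 with the sample numbers as a block. Leaving out each replicate gave 95 to 197 calls over the array, 1 to 3 of the 3 genes, and log2 differences of 10.11 to 11.33 for SPPA, -1.09 to -0.92 for AT5G49840 and -1.30 to -1.01 for AT5G35100, with fewer samples by construction. Of the calls over the array, the share with laf6 higher was 56.4% after quantile normalisation, 23.9% as deposited and 82.3% with replicates centred on their medians. Of the 11 other listed genes, limma called 1 with medians centred, beside 7.39% of all probes, and 3 with the pseudocount, beside 14.5%. It called 2 with pseudocount and replicate block, beside 11.5%. With the 12 samples unaveraged it called 3 without the block and 2 with it, beside 22.5% and 22.2%. Without the dimmest 25% of probes, a filter that removed SPPA, it called 1 of the 8 still tested, beside 13.8%. Each of these calls was higher in laf6. The settings were planned, but this count of the other listed genes was added after seeing the data. For the other changes the cause was not tested. Values near 0 cannot be ranked.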
